A study of Mus musculus with 10 samples.

Results

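The matricellular protein genes described here are Postn, Tnc, Sparc, Sparcl1, Fn1, Thbs1, Thbs2, Tnxb, Smoc1 and Smoc2. They were taken by symbol from the deposited gene table, and all 10 were found among its 18725 genes. The table holds RNA sequencing of the mouse cochlea from 5 euthyroid and 5 hypothyroid libraries of C57BL/6J mice at postnatal day 10. The tissue was the outer sulcus, an epithelial strip at the lateral edge of the cochlear duct, with the spiral ligament beneath it. The mothers of the hypothyroid mice drank water sweetened with 5.0% sucrose that held methimazole at 0.05% and, at 1.0%, sodium perchlorate monohydrate, from embryonic day 17, through lactation, to postnatal day 10. Those of the euthyroid mice drank vehicle over the same time. Methimazole blocks thyroid hormone synthesis, and perchlorate blocks iodide uptake by the thyroid. The drugs reached the pups through the mothers, and the labels give neither litter nor animal for a library, so a litter effect and the treatment cannot be told apart. The extraction text in the labels speaks instead of femoral head cartilage at postnatal day 22, whereas each sample's tissue and age labels name the cochlear outer sulcus at postnatal day 10.

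Matricellular proteins are secreted into the extracellular matrix, where they act on cells and on matrix assembly more than they bear load. Many bind integrins, collagens or growth factors, and their genes are often active in developing or healing tissue. Fibronectin, encoded by Fn1, is itself a structural glycoprotein and is grouped with them for its cell-binding role. In the cochlea, the fibrocytes of the spiral ligament lie in a collagen-rich matrix, into which the root cells of the outer sulcus send processes.

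Library totals ran from 19298145 to 20063961 estimated counts, so depth differed little between libraries. Of 14862 genes tested, 71.8% passed the test between the groups, and of those 52.5% were higher in hypothyroid libraries. With library sizes alone, without composition factors, 74.7% of the genes called were higher, and the median over all genes moved from a log2 value of 0.04 to one of 0.30. Levels are given in CPM, counts scaled to a common library size that is adjusted for composition by TMM factors, and comparisons between genes in TPM, transcript shares on a common scale that allow for gene length. Fold changes are hypothyroid against euthyroid, with the standard error (SE) of the log2 value and edgeR's adjusted p. Fibrocyte genes of the spiral ligament were detected in both groups but did not keep one level. The most abundant, Otor and Car3, averaged 5479 and 5618 CPM in euthyroid libraries and 6060 and 3608 CPM in hypothyroid ones. Otos fell 69.7-fold, from 3906 to 56.1 CPM (adjusted p = 2.37e-07 in edgeR), and Coch fell 11.0-fold, from 2868 to 261 CPM (adjusted p = 3.38e-08 in edgeR). Skeletal muscle markers, by contrast, summed to between 0.808 and 3.66 CPM in any library. The summed level of the Y-linked genes Ddx3y, Eif2s3y and Kdm5d was between 242 and 286 CPM in euthyroid replicates 1 to 4 and hypothyroid replicates 1 and 4. It was 146.5 CPM in hypothyroid replicate 3, and under 1 CPM in euthyroid replicate 5 and hypothyroid replicates 2 and 5. The labels give no sex. Results on the members without the libraries low in these genes are given where they changed a call.

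All 10 members passed the test, 7 of them higher and 3 lower in the hypothyroid libraries. Over all genes tested, 37.7% were higher and 34.1% lower. Postn, Tnc, Fn1, Thbs2, Tnxb, Smoc1 and Smoc2 rose, and Sparc, Sparcl1 and Thbs1 fell. At least 2-fold changes were seen upward in 5 members (Postn, Tnc, Thbs2, Smoc1 and Smoc2) and downward in 2 (Sparc and Sparcl1), against 9.25% and 7.91% of all genes. The CPM ranges of the groups did not overlap in 9 members, all but Fn1, against 57.9% of all genes. Without the TMM factors, or by TPM, the Thbs1 ranges overlapped and the Fn1 ranges did not. The median absolute log2 fold change was 1.24 over the members and 0.38 over all genes tested. The members were chosen with earlier results of these data known, so setting them beside all genes is no test of the set. In bulk tissue, fewer cells of a type and less RNA per cell cannot be told apart, and this holds for each value that follows.

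**Figure D1:**
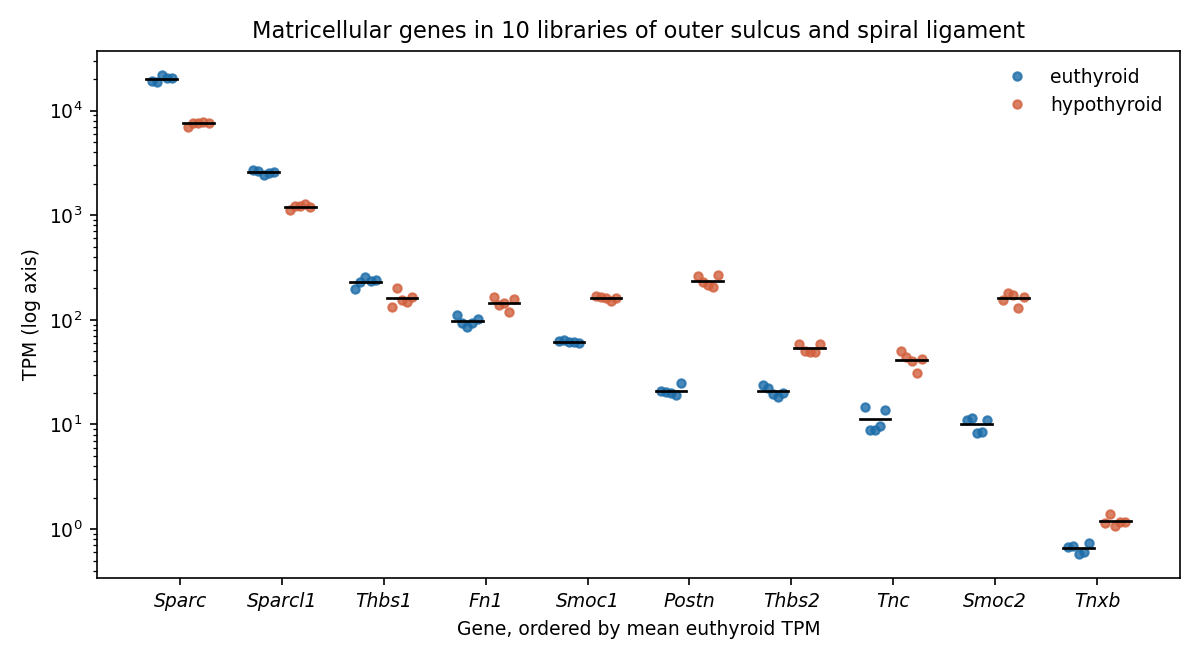
TPM on a log axis for each member in every library, ordered by mean euthyroid TPM; points are the 5 libraries of a group and lines their means. Sparc and Sparcl1 stand above all other members in both groups, and Smoc2 and Postn show the widest gaps between the groups.

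Sparc encodes osteonectin, a collagen-binding glycoprotein that is plentiful in bone, basement membranes and remodelling tissue. It lies on chromosome 11 (GRCm38.p6) from 55394159 to 55420080. By TPM it ranked at 1 of all 18725 genes in every euthyroid library and between 3 and 4 in the hypothyroid ones. Its levels in euthyroid replicates 1 to 5 were 17627, 17010, 20910, 19490 and 19071 CPM. The hypothyroid replicates had 5550, 6110, 6300, 6185 and 5991 CPM. The lowest euthyroid library was thus far above the highest hypothyroid one, and Sparc fell 3.12-fold (log2 fold change -1.64 with SE 0.06, adjusted p = 1.02e-11 in edgeR).

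Sparcl1 encodes hevin, a relative of SPARC with a long acidic amino-terminal part, known from brain and vessel matrix. It lies on chromosome 5 from 104079108 to 104114088. Euthyroid replicates 1 to 5 had 3648, 3506, 3400, 3471 and 3533 CPM, and hypothyroid replicates had 1292, 1444, 1458, 1489 and 1359 CPM. Both groups were tight, and their ranges were well apart. Sparcl1 fell 2.49-fold (log2 fold change -1.32 with SE 0.05, adjusted p = 8.97e-12 in edgeR).

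Postn encodes periostin, which binds collagens and fibronectin and helps to assemble and crosslink collagen fibrils. It lies on chromosome 3 from 54359267 to 54391041. Its level in euthyroid replicates 1 to 5 was 28.8, 27.9, 28.4, 27.3 and 35.1 CPM, and in hypothyroid replicates 322, 287, 272, 255 and 328 CPM. Every hypothyroid library was far above every euthyroid one, with euthyroid replicate 5 the highest of its group. Postn rose 9.92-fold (log2 fold change 3.31 with SE 0.09, adjusted p = 5.27e-13 in edgeR). Its nearest relative in protein family, Tgfbi, also rose (log2 fold change 1.73, 44.9 ± 2.19 against 149 ± 16.2 CPM, SD, n = 5 each, adjusted p = 1.43e-11 in edgeR).

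Tnc encodes tenascin-C, a hexameric glycoprotein of developing and injured connective tissue that modulates adhesion to fibronectin. It lies on chromosome 4 from 63959785 to 64047015. Euthyroid replicates had 40.7, 24.6, 25.6, 28.6 and 39.97 CPM, and hypothyroid replicates 123, 108, 101, 75.0 and 101 CPM. The lowest hypothyroid library, replicate 4, remained above all euthyroid ones. Tnc rose 3.19-fold (log2 fold change 1.67 with SE 0.18, adjusted p = 1.66e-05 in edgeR). It varied most among the members, with a coefficient of variation of 24.7% in euthyroid and 17.2% in hypothyroid libraries.

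Tnxb encodes tenascin-X, a large tenascin that regulates collagen spacing in skin and other connective tissue. It lies on chromosome 17 from 34660453 to 34719815 and was the least abundant member, with 58 to 135 counts in a library. Its level was 3.27 to 4.10 CPM over the euthyroid and 5.21 to 6.42 CPM over the hypothyroid libraries, with no overlap. Tnxb rose 1.55-fold (log2 fold change 0.63 with SE 0.11, adjusted p = 0.000140 in edgeR).

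Thrombospondins 1 and 2 are trimeric glycoproteins that bind CD36 and CD47 and restrain blood vessel growth, and thrombospondin 1 also activates latent TGF-beta. Thbs1 lies on chromosome 2 from 118111876 to 118127133 and Thbs2 on chromosome 17 from 14665500 to 14694262. Thbs1 measured 496, 577, 671, 620 and 631 CPM in the euthyroid replicates and 289, 448, 350, 323 and 356 CPM in the hypothyroid ones. The groups were apart by a narrow gap, between euthyroid replicate 1 and hypothyroid replicate 2, and Thbs1 fell 1.70-fold (log2 fold change -0.76 with SE 0.11, adjusted p = 5.74e-05 in edgeR). By TPM the groups overlapped there, at 195.5 in euthyroid replicate 1 and 201.4 in hypothyroid replicate 2. Thbs2 measured 60.9, 56.6, 52.4, 48.8 and 52.4 CPM in the euthyroid and 130, 113, 114, 109 and 129 CPM in the hypothyroid replicates. It was higher in all 5 hypothyroid libraries than in any euthyroid one and rose 2.19-fold (log2 fold change 1.13 with SE 0.07, adjusted p = 8.37e-10 in edgeR). Thbs1 is also an immediate early gene in many cells. The summed level of 9 immediate early genes was 229 to 314 CPM in the euthyroid and 117 to 184 CPM in the hypothyroid libraries. Of these genes 6 were lower and 0 higher, against 34.1% and 37.7% of all genes tested. With library sizes alone 4 were lower, and with upper quartile factors 5. The part of these genes in the Thbs1 result was not tested.

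Smoc1 and Smoc2 encode secreted modular calcium-binding proteins of the SPARC family, and SMOC1 is known to modulate BMP signalling. Smoc1 lies on chromosome 12 from 81026808 to 81186414 and Smoc2 on chromosome 17 from 14279490 to 14404790. Smoc1 had 92.9, 93.6, 94.1, 94.7 and 91.1 CPM in the euthyroid replicates and 216, 218, 214, 194 and 204 CPM in the hypothyroid ones. It was the steadiest member in the euthyroid group, with a coefficient of variation of 1.48%, and rose 2.24-fold (log2 fold change 1.16 with SE 0.04, adjusted p = 4.64e-12 in edgeR). Smoc2 had 13.3, 13.9, 10.6, 10.5 and 13.8 CPM in the euthyroid replicates and 162, 193, 189.6, 136 and 172 CPM in the hypothyroid ones. The rise of Smoc2 was 13.7-fold, the largest of the 10 members (log2 fold change 3.77 with SE 0.12, adjusted p = 2.58e-11 in edgeR).

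Fn1 encodes fibronectin, which links integrins to the matrix and seeds collagen fibrils. It lies on chromosome 1 from 71585473 to 71653280. Euthyroid replicates had 396, 325, 311, 344 and 372 CPM, and hypothyroid replicates 504, 435, 468, 367 and 479 CPM. The groups overlapped, since hypothyroid replicate 4 was below euthyroid replicates 1 and 5. By TPM they did not overlap, with a highest euthyroid value of 111.4 and a lowest hypothyroid value of 119.5. Fn1 rose 1.29-fold (log2 fold change 0.37 with SE 0.09, adjusted p = 0.00149 in edgeR). Among only the 4 euthyroid and 2 hypothyroid libraries with a high Y-linked level, it had a log2 fold change of 0.34 and no longer passed (edgeR adjusted p = 0.0604).

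Sequence upstream of the start was held by RefSeq's promoter table (GRCm38.p6) for 5 of the 10 members, namely Postn, Tnc, Sparc, Thbs2 and Tnxb, in 7 entries. The 250 bases before a start were searched on both strands for TATAAA, the core of the TATA box, and for AGGTCA, the half-site that thyroid hormone receptors bind. The 3 windows printed belong to different members that rose at least 2-fold, and each is clear of annotated exons, with matches in capitals. TATAAA began 26 bases before the start in the Postn window and 126 bases before it in the Tnc and Thbs2 windows, on the reverse strand in Thbs2. Postn has a further start upstream and Tnc a further one downstream, whose windows are not printed. The further Postn window, just before the gene start given above, is also clear of annotated exons and holds AGGTCA. The windows printed are chr3:54360857-54361106 on the plus strand for Postn, chr4:64047016-64047265 on the minus strand for Tnc and chr17:14694263-14694512 on the minus strand for Thbs2.
Postn: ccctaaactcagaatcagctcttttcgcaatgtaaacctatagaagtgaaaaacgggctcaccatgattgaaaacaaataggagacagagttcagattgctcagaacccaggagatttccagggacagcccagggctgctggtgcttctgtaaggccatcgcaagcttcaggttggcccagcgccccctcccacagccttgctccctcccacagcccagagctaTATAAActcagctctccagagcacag
Tnc: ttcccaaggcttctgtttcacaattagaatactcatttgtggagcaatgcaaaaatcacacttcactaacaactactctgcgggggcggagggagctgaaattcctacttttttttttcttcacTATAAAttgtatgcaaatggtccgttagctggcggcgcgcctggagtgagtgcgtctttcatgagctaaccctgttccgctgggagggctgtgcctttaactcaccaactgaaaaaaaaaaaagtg
Thbs2: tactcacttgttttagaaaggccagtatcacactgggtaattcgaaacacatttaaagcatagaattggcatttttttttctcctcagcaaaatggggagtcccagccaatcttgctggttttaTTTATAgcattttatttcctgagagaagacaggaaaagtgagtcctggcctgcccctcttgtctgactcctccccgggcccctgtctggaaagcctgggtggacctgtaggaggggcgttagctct

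TATAAA was present in 12.4% of all 32851 promoter entries of the same length and AGGTCA in 14.0%. Among the members, TATAAA was found in both Tnc windows, the Thbs2 window and the printed Postn window. It was absent from the windows of Tnxb and of the further Postn start. The window of Sparc, which fell, overlaps annotated exons and held neither motif. Among the members, AGGTCA was found once each in the window of Tnxb and in that of the further Postn start, on the reverse strand in each. No member's window held a direct repeat of AGGTCA with 4 bases between, which occurred in 0.0152% of all entries. At so low a share, its absence from 7 entries of 5 members says little, and the remaining members had no entry.

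The order of the members by TPM differed between the groups. In the euthyroid libraries it ran Sparc (mean 20156), Sparcl1 (2577), Thbs1 (232), Fn1 (97.1), Smoc1 (61.8), Postn (21.0), Thbs2 (20.8), Tnc (11.2), Smoc2 (10.1) and Tnxb (0.656). Postn and Thbs2 were neighbours whose libraries overlapped, as were Tnc and Smoc2. In the hypothyroid libraries Sparc (7568) and Sparcl1 (1208) were followed by Postn (236), which had stood behind Smoc1 in the euthyroid ones. Smoc1 (162), Smoc2 (161), Thbs1 (160.3) and Fn1 (145) came next with overlapping libraries, then Thbs2 (53.4), Tnc (41.7) and Tnxb (1.19), of which Thbs2 and Tnc overlapped. Among all genes, Smoc2 ranked between 9365 and 10186 in euthyroid and between 844 and 1352 in hypothyroid libraries by TPM.

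The summed TPM of the members averaged 23188 ± 1195 (SD, n = 5) under euthyroid and 9736 ± 351 (SD, n = 5) under hypothyroid conditions. Sparc alone made up 86.9% ± 1.08 and 77.7% ± 0.709 of it. Without Sparc and Sparcl1, the other 8 members summed to 455 ± 12.9 and 960 ± 76.9 TPM. The sum of all 10 was thus lower in the hypothyroid libraries, and the sum of the 8 less abundant members was higher.

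Ratios between members of one family do not depend on how libraries are scaled. Of 4 such ratios compared, all differed between the groups with no overlap (exact permutation test, two-sided, p = 0.00794 each, the smallest that 5 against 5 can give, and 0.00794 after adjustment over the 4). Smoc1 exceeded Smoc2 between 5.40-fold and 7.36-fold in euthyroid libraries, and the ratio was 0.923 to 1.17 in hypothyroid ones. Its log2 ratio went from 2.63 ± 0.222 to 0.02 ± 0.153 (SD, n = 5 each). The Thbs1 to Thbs2 ratio went from between 8.24 and 13.0 to between 2.26 and 4.02 (log2 ratio 3.48 ± 0.279 and 1.58 ± 0.300, SD, n = 5 each). Tnc to Tnxb went the other way, from 12.9 to 22.1 up to 26.9 to 44.3 (log2 difference 1.06). Sparc to Sparcl1 moved least, from between 7.06 and 9.01 to between 6.11 and 6.44 (log2 difference -0.32), so Sparc fell by more than Sparcl1.

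**Figure D2:**
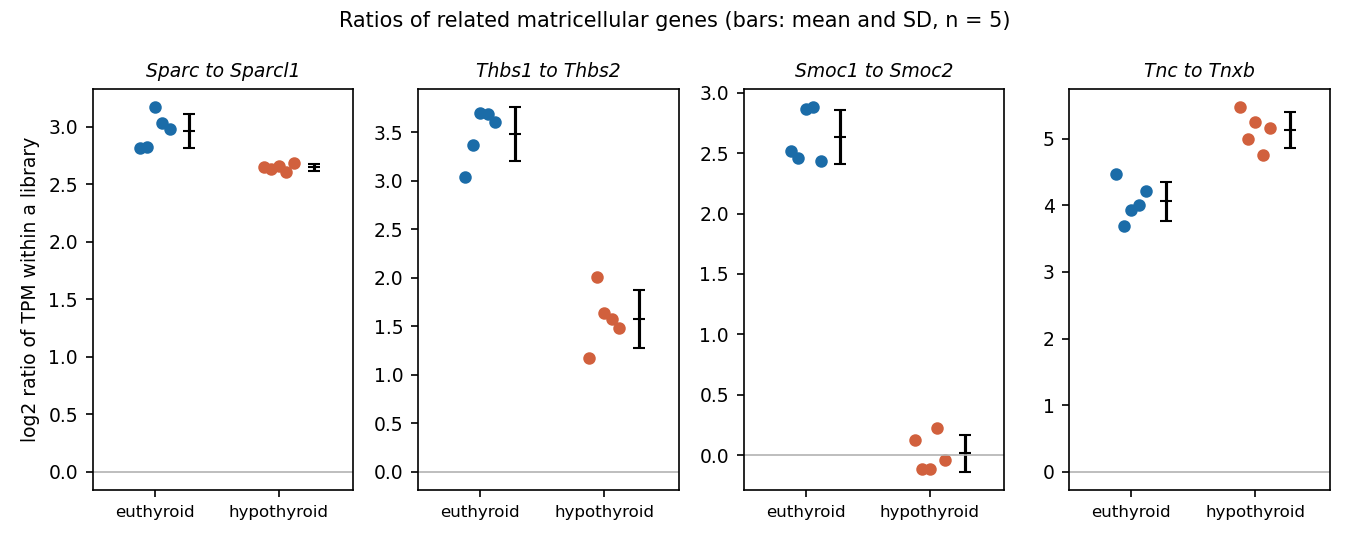
Log2 ratio of TPM of 4 pairs of related members within each library, in euthyroid and hypothyroid groups; points are libraries and bars the mean and SD of 5. Smoc1 to Smoc2 sits near 0 in the hypothyroid libraries and between 2.43 and 2.88 in the euthyroid ones.

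Among 21 further matricellular and closely related genes, 19 were tested. Of these, 10 rose and 5 fell, against 37.7% and 34.1% of all genes tested, and 4 did not pass. The list's median log2 change was 0.37, against 0.04 over all genes tested. Of the 5 most abundant, Ccn4, a CCN family gene active in bone-forming cells, averaged 580 ± 46.1 CPM in the euthyroid group (SD, n = 5) against 77.4 ± 15.97 CPM in the other (SD, n = 5), a 7.49-fold fall (adjusted p = 2.14e-09 in edgeR). Spock2, a proteoglycan gene of the SPARC family, averaged 432 ± 51.2 and 178 ± 15.7 CPM, a 2.44-fold fall (adjusted p = 3.65e-09 in edgeR). Fstl1, another SPARC family gene, rose 1.11-fold (edgeR adjusted p = 0.0214), a change that did not pass with RLE factors (0.0543) or without euthyroid replicate 2 (0.0506), 3 (0.0601) or 4 (0.0834) or hypothyroid replicate 3 (0.0549), or among the libraries with a high Y-linked level (0.199).

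Spp1, the osteopontin gene, had 288 ± 54.9 and 479 ± 231 CPM (SD, n = 5 each) and did not pass (edgeR adjusted p = 0.0717). It passed with library sizes alone (0.0213), upper quartile factors (0.0425), DESeq2 (0.0484), the 3 limma fits (0.0278 to 0.0358) and the replicate block (0.0496), and without hypothyroid replicate 1 (0.0308) or 5 (0.0499). Ccn2, the connective tissue growth factor gene, measured 199, 232, 373, 453 and 312 CPM in the euthyroid and 115, 385, 144, 117 and 125.5 CPM in the hypothyroid replicates. Hypothyroid replicate 2 stood well above the other 4 of its group. Ccn2 did not pass (log2 fold change -0.82, edgeR adjusted p = 0.108), but passed without hypothyroid replicate 2 (log2 fold change -1.32, 0.00173) and among the libraries with a high Y-linked level (-1.43, 0.0346). That library also had the highest Thbs1 of its group, and without it the log2 fold change of Thbs1 was -0.86.

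Of 21 genes of receptors for these proteins and of related surface proteins, 7 rose, 13 fell and 1 did not pass. The shares over all genes tested were 37.7% higher and 34.1% lower. The list's median log2 change was -0.41. With library sizes alone 8 rose and 9 fell, and the median was -0.15. Among the 5 most abundant, Calr, the gene of calreticulin, which takes part in thrombospondin binding at the cell surface, averaged 1056 ± 73.1 and 686 ± 61.3 CPM (SD, n = 5 each), a 1.54-fold fall (adjusted p = 7.20e-07 in edgeR). Sdc4, a heparan sulfate proteoglycan gene of focal adhesions, fell 1.81-fold and Eng, the endoglin gene of vessels, 2.01-fold. The integrin subunit gene Itgb1 and the endocytic receptor gene Lrp1 fell 1.19-fold and 1.25-fold. These were not called with library sizes alone, where Itgb1 had a log2 value of 0.02 (edgeR adjusted p = 0.691) and Lrp1 of -0.05 (edgeR adjusted p = 0.461). Neither gene was called in the 3 limma fits (limma adjusted p of 0.60 to 0.68 for Itgb1 and 0.21 to 0.46 for Lrp1). Of 13 genes of collagen partners and matrix-processing enzymes, 8 rose, 3 fell and 2 did not pass (the list's median log2 change was 0.85). The 2 most abundant were Col1a2, which did not pass (6228 CPM in euthyroid and 5879 CPM in hypothyroid libraries, edgeR adjusted p = 0.181), and Col3a1, which fell 1.59-fold (edgeR adjusted p = 9.49e-08). Col1a2 passed as higher with library sizes alone (log2 fold change 0.18, edgeR adjusted p = 0.00330) and as lower with DESeq2 (log2 fold change -0.11, adjusted p = 0.0472).

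**Figure D3:**
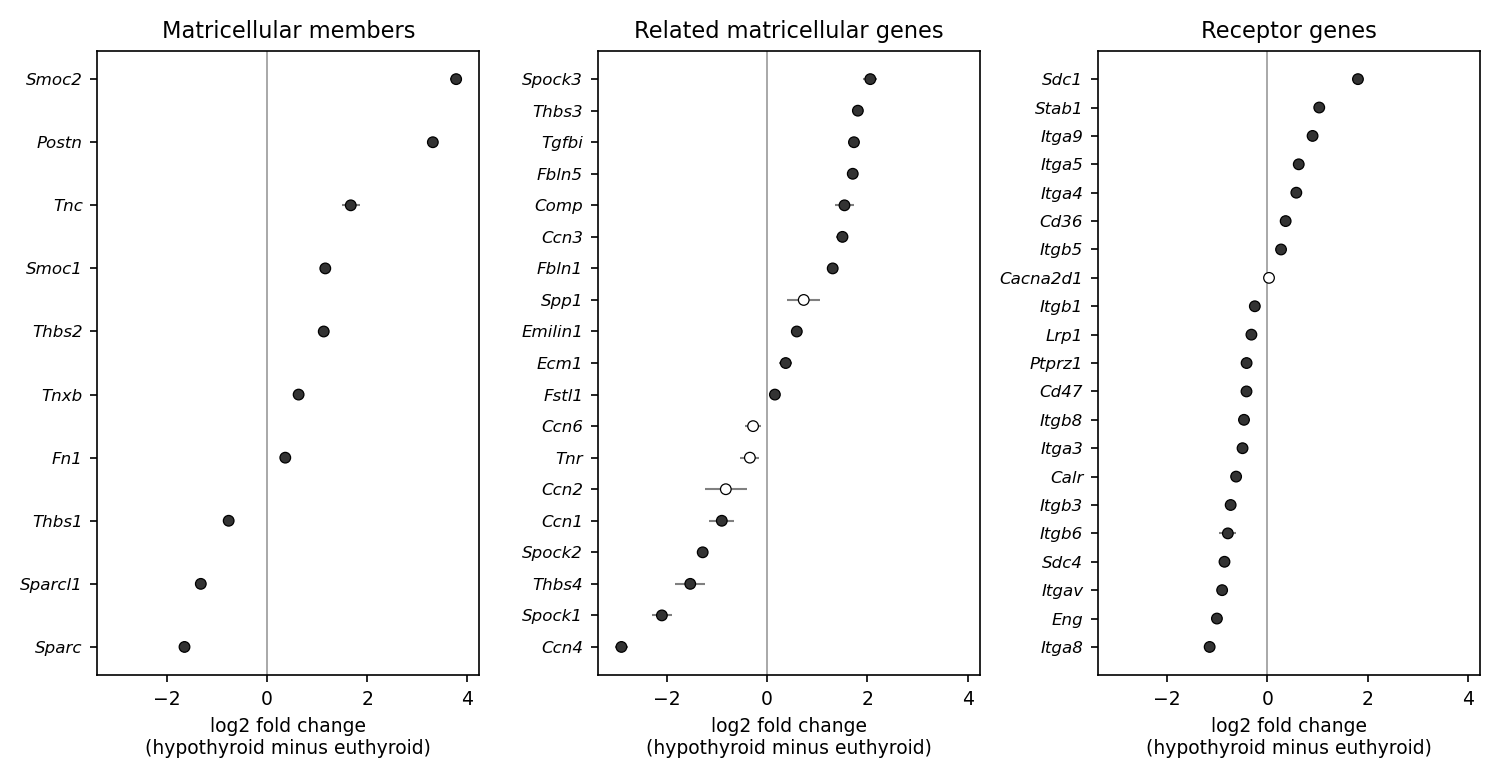
Log2 fold change (hypothyroid minus euthyroid) with its SE for the members, the related matricellular genes and the receptor genes that were tested; filled points passed an edgeR adjusted p of 0.05 and open ones did not. Smoc2 and Postn lie farthest to the right and Ccn4 farthest to the left.

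Markers of several cell types moved in the same libraries, and their part in the results on the members was not tested. Of all genes tested, 37.7% were higher and 34.1% lower, the shares beside which each marker list here and below is to be read. Of 10 osteoblast and bone genes 9 fell and 0 rose, with a summed level of 1143 to 1768 CPM in euthyroid and 89.7 to 149 CPM in hypothyroid libraries, and Bglap2 was at 0 counts in all hypothyroid libraries. The bone genes Ibsp and Dmp1 went from 763 to 12.3 and from 203 to 11.2 CPM. Cartilage genes fell in 6 of 9 cases and rose in 2, from a sum between 45439 and 51925 to one between 18381 and 19961 CPM, led by Col2a1 and Col9a1. Of 9 marker genes of pericytes and vascular smooth muscle, 6 fell and 1 rose (sums of 1376 to 1723 and 717 to 791 CPM), led by Rgs5 and Pdgfrb. Endothelial genes fell in 8 of 10 cases and rose in 0 (sums of 891 to 1140 and 673 to 786 CPM), with Emcn and Cdh5 the most abundant. With library sizes alone 6 of them fell. Cdh5 passed as lower (edgeR adjusted p = 0.0273), but not with library sizes alone (0.658), upper quartile factors (0.229) or in the 3 limma fits. Nor did it pass without euthyroid replicate 3 (edgeR adjusted p = 0.0592) or hypothyroid replicate 2 (0.0706) or 5 (0.0719). Among the libraries with a high Y-linked level it did not pass either (0.276). Macrophage genes rose in 7 of 8 cases (sums of 215 to 242 and 303 to 364 CPM), led by Csf1r and Cx3cr1.

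Outer sulcus and root cell genes fell in 6 of 9 cases and rose in 1 (sums of 5254 to 5919 and 2454 to 3128 CPM). Among them Epyc fell, and Cdh1 did not pass (edgeR adjusted p = 0.883). Cdh1 passed as higher with library sizes alone (log2 fold change 0.28, adjusted p = 0.000342 in edgeR) and in the 3 limma fits. Of 8 fibrocyte genes of the ligament 4 fell and 3 rose (sums of 18876 to 22611 and 11414 to 14060 CPM), or 4 and 4 with library sizes alone. Otor did not pass (edgeR adjusted p = 0.109), but passed as higher with library sizes alone (log2 fold change 0.41), upper quartile factors (0.26), in the 3 limma fits (0.36 to 0.40) and without hypothyroid replicate 2 (0.19) or 4 (0.19). Of 6 tested hair cell genes 4 fell and 1 rose (sums of 41.7 to 95.4 and 32.1 to 41.8 CPM), Ocm falling and Myo7a rising, and Slc26a5 was at 0 counts in all hypothyroid libraries. Of 6 Schwann cell and glial genes 2 fell and 1 rose (sums of 306 to 402 and 258 to 327 CPM), with Pmp22 lower and Sox10 not passing (edgeR adjusted p = 0.930). With library sizes alone 1 fell and 2 rose, and Sox10 passed as higher there (log2 fold change 0.27, adjusted p = 0.00745 in edgeR) and in the 3 limma fits. Of 3 tested platelet genes Pf4 rose and Gp1bb fell (sums of 25.4 to 29.1 and 26.3 to 35.3 CPM). Of 2 tested muscle genes Tnnt3 rose and Mylpf did not pass. The most abundant immediate early genes, Egr1 and Ier2, fell from 81.8 to 41.7 and from 51.4 to 27.5 CPM. Egr1 did not pass with library sizes alone (adjusted p = 0.0720 in edgeR) or among the libraries with a high Y-linked level (0.265).

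The directions of all 10 members held under each of 22 alternatives per gene. With library sizes alone, where all genes shifted upward, Fn1 had a log2 fold change of 0.63 and Thbs1 of -0.50, while Postn had 3.58 and Sparc -1.38.

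**Figure D4:**
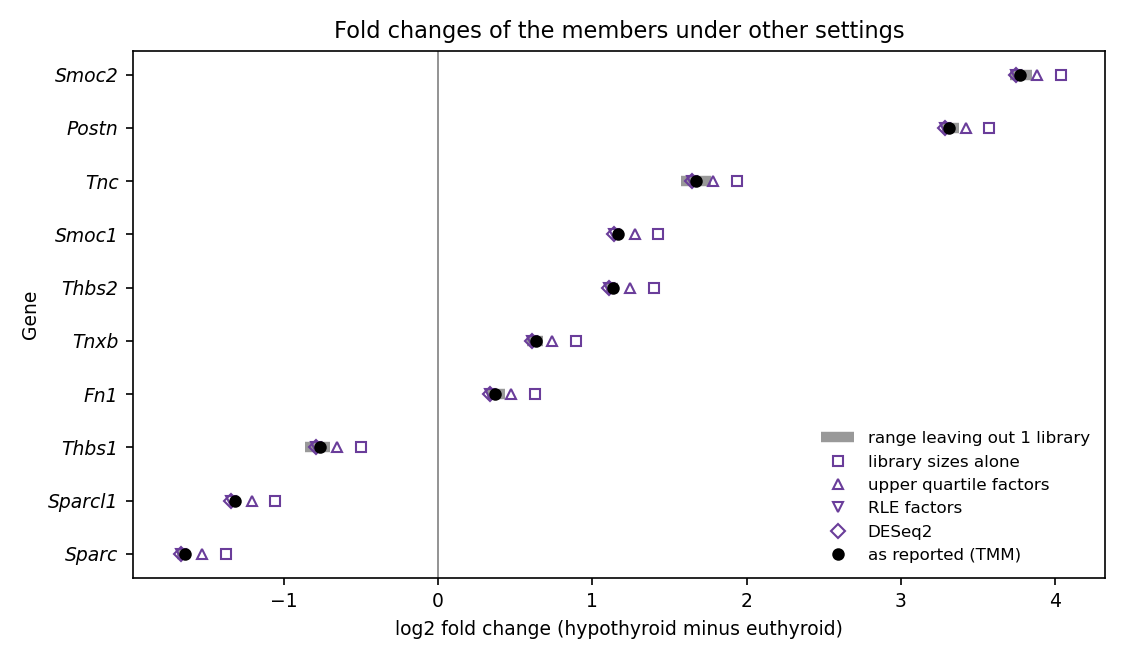
Log2 fold change of each member as reported (black), with 3 other library scalings and DESeq2 (open symbols), and the range when 1 library is left out (grey bars). Every symbol of a member stays on the same side of 0, and library sizes alone shift all members to the right.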

How the data were processed

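RNA of 10 libraries was measured by sequencing. Per the labels' protocols, polyadenylated RNA was read as single-end reads of 50 bases. The submitters' processing notes name RSEM 1.2.12, HISAT2 2.0.4, Bowtie2 2.2.5 and build GRCm38.p6; their role and order are not given in the sources used here. The deposited table holds expected counts per gene, estimated by dividing reads among genes, and TPM and FPKM values that the authors adjusted for length and library total. A further 10 columns of scaled values and 8 of group means were not used. Whether counting kept strand is not stated, so reads of opposite-strand genes overlapping Tnc, Smoc2, Sparcl1, Thbs1, Fn1 and Tnxb cannot be told apart from theirs.

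Expected counts were rounded to whole numbers, filtered with filterByExpr (minimum count 10; 14862 genes kept, all members among them) and scaled by TMM. edgeR 4.0.16 (quasi-likelihood test, robust, two-sided, group as the only term) was run across all genes in R 4.3.3 with Benjamini-Hochberg adjustment and a threshold of 0.05. The SE of a log2 fold change was taken from its size and the root of F. The fit was tested on simulated data in which few genes changed, in both directions. That simulation did not test the scaling under changes as broad as those here. Ratios used deposited TPM and exact permutation tests (SciPy 1.17.1). Alternatives used DESeq2 1.42.0 and limma 3.58.1, other scalings and filters, and libraries left out singly. Figures used matplotlib 3.10.9.

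Libraries were grouped by their titles. The labels do not say whether they came from separate animals, so p-values measure only the spread between these libraries, part of which could be technical. Y-linked levels ran from 0.721 to 286 CPM in the euthyroid and from 0.0942 to 257 CPM in the hypothyroid group. The libraries of a group were thus not all repeats of the same RNA, but libraries alike in that level could be. In the 20 same-group library pairs, chi-square averaged 5.40 to 15.7 per gene, above sampling noise. The members and lists were chosen with earlier results of these data known. Named were all members, the 5 most abundant related and receptor genes and the 2 most abundant of each other list. Tgfbi, Ccn1, Otos, Coch, Bglap2, Slc26a5, Col1a1, Col14a1 and the Y-linked genes were named after their values were seen.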

Additional observations from a re-analysis of the deposited data

Results flagged for a closer look

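Among 28 sets of 5 libraries (each member's CPM and each ratio in each group), 2 held a library whose gap to its nearest neighbour took more than 0.71 of the group's range, Dixon's 95% limit for 5 values. Chance flags about 1 in 20 such sets, so 2 of 28 is near that share. Postn measured 35.1 CPM in euthyroid replicate 5, a gap of 0.81 of the range. Without that library its log2 fold change was 3.38, the upper end of the range of 3.27 to 3.38 over all libraries left out singly. Tnxb measured 6.42 CPM in hypothyroid replicate 2, a gap of 0.787 of the range, at 58 to 135 counts per library.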

How the results depend on the processing

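The members were 7 higher and 3 lower under every alternative but 1. Among libraries with a high Y-linked level, a choice made after the data were seen along with the Y-linked covariate, 6 were higher and 3 lower. Genes called ranged from 9027 with a stricter filter and 9261 among libraries with a high Y-linked level to 11578 with library sizes alone, and from 10294 to 10663 with 1 library left out. The 4 ratios kept their direction under FPKM, counts and libraries left out singly. Equal replicate numbers did not pair the libraries (correlations of 0.108, -0.0774, 0.00298, 0.0412 and 0.09), and 1 of 5 correlated best with its own number. With the replicate block, 10392 genes were called and the members stayed at 7 higher and 3 lower.

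Small changes turned direction, and the cause was not tested. With library sizes alone the log2 fold change was 0.040 for Cdh5, 0.182 for Col1a2 and 0.018 for Itgb1. With upper quartile factors Col1a2 had 0.027. In limma on log2(FPKM + 0.1), Cdh5 had 0.037, Col1a2 0.182 and Itgb1 0.017, and on log2(FPKM + 1) 0.036, 0.182 and 0.017. In limma on log2(TPM + 0.1) Col1a2 had 0.143. Cdh1 had -0.016 with RLE factors and DESeq2, and Sox10 -0.017, whereas both passed as higher with library sizes alone (0.277 and 0.271) and in the 3 limma fits (0.235 to 0.274 for Cdh1 and 0.235 to 0.273 for Sox10). With 1 library left out, Cdh1 ran from -0.031 to 0.043 and Sox10 from -0.054 to 0.048. Sox10 had -0.005 with the Y-linked covariate and -0.049 among libraries with a high Y-linked level. Depth limits Tnxb most, at 58 to 135 counts per library.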

Other observations

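Within groups, several members were high in the same libraries. Among the euthyroid libraries, replicates 1 and 5 had the highest values of Tnc (40.7 and 39.97 CPM), Fn1 (396 and 372 CPM) and Postn (28.8 and 35.1 CPM). Among the hypothyroid libraries, replicate 4 had the lowest values of Tnc (75.0 CPM), Fn1 (367 CPM), Postn (255 CPM) and Smoc2 (136 CPM). Hypothyroid replicate 2 had the highest values of Thbs1 (448 CPM), Ccn2 (385 CPM) and Ccn1 (92.9 CPM), where the next highest Ccn1 value of that group was 46.0 CPM. These patterns were noticed in the data and were not tested.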
